A study of Mus musculus with 9 samples.

Results

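The muscle miRNAs mmu-miR-1a-3p, mmu-miR-133a-3p and mmu-miR-206-3p were measured in exosomes released from mouse liver. They were chosen by name, and selected on a measured value, their high counts in 1 control library, so everything that follows about that library is a description and carries no test. They are 3 of the 722 entries in the deposited table, which holds 591 named mature miRNAs and 131 predicted ones. Small RNA was sequenced in 9 libraries, 3 in each of 3 groups. KO HFFC mice lacked Hsp90β, the product of Hsp90ab1, through an albumin-promoter Cre, which acts in hepatocytes and leaves the gene intact in other cells, and ate a diet rich in fat, fructose and cholesterol (HFFC). Flox HFFC mice carried the floxed gene without Cre and ate the same diet, and flox chow mice carried the floxed gene and ate standard chow. By the study's methods the floxed and knockout mice were adult when the diets began and were fed for months. Their sex is not given there, while the paper's abstract speaks of male mice. Liver pieces were incubated with collagenase before vesicles were collected by differential centrifugation. The libraries are called KO HFFC, flox HFFC and flox chow replicates 1 to 3.

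miRNAs are short RNAs that guide Argonaute proteins to messenger RNAs through a seed near their 5′ end and lower the output of those messages. miR-1 and miR-133 are made in heart and skeletal muscle from shared transcripts and act in muscle differentiation and contraction, while miR-206, a relative of miR-1 with the same seed, belongs to skeletal muscle. None of the 3 is on the list of hepatocyte miRNAs used here. In liver samples they can serve as a readout of RNA from striated muscle, but which cells their reads came from was not tested.

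The mature sequence of the skeletal muscle member, and those of 2 further muscle miRNAs that were found high in the same library, are shown because they identify what was counted. They are RefSeq sequences on mouse build GRCm38.p6, written 5′ to 3′, with the seed (bases 2 to 8) in capitals. A sequence was matched for 1 of the 3 members and for 2 of the 3 other striated muscle entries. Among the 498 entries with a sequence, no other has the seed of any of these. miR-1a-3p, which shares the seed of miR-206-3p, had no matched sequence and was not part of this comparison.
mmu-miR-206-3p, chr1:20679055-20679076, plus strand: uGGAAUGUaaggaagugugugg
mmu-miR-1a-1-5p, chr2:180389057-180389079, plus strand: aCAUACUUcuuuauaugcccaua
mmu-miR-499-5p, chr2:155622893-155622913, plus strand: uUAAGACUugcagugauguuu
The hairpin of Mir206 is 73 bases long and lies at chr1:20679010-20679082 on the plus strand. The mature miR-206-3p (capitals) takes up bases 46 to 67 of it, so the counted strand is the 3′ arm.
Mir206: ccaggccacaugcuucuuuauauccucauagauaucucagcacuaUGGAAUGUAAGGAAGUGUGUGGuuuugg

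Depth differed between libraries and bears on every value below. Flox chow replicate 3 was the shallowest, with 218256 counts assigned to miRNAs where the deepest library had 681286, and miRNAs were also the smallest part of its sequenced tags (0.849%, in a range up to 2.61%). Levels are therefore given as counts per 1000000 miRNA counts of the library (CPM), with counts beside them. Intervals are 95% Wilson intervals on a library's share and cover counting error only. A floor of 3 counts corresponds to 4.40 to 13.7 CPM. The hepatocyte miRNA miR-122-5p made up 33.8% of the counts of flox chow replicate 3, the highest share of the 9, against 15.6% to 29.2% in the other 8.

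miR-1a-3p, the muscle miRNA shared by heart and skeletal muscle, was the most counted of the 3. It had 25, 58 and 64 counts in KO HFFC libraries, 40, 52 and 54 in flox HFFC libraries, and 51, 31 and 1029 in flox chow libraries. On the CPM scale these were 59.1, 127 and 209 in KO HFFC, 136, 86.0 and 134 in flox HFFC, and 105, 45.5 and 4715 in flox chow. A single library, flox chow replicate 3, stood above all others, and the other 8 overlapped across the 3 groups. In these bulk libraries, more vesicles from one source and more of a miRNA per vesicle cannot be told apart. In flox chow replicate 3 miR-1a-3p reached 0.471% of all miRNA counts (95% Wilson interval 0.444% to 0.501%). That share was 22.6 times the highest of the others, KO HFFC replicate 3 (exact interval 17.5 to 29.6), and 67.1 times that of the 2 other flox chow libraries pooled (53.5 to 85.1). In the order of levels, flox chow replicate 3 was the only library whose interval did not reach that of its neighbour.

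miR-206-3p, the skeletal muscle member, had the same high library on a lower level. Its counts were 13, 25 and 13 in KO HFFC libraries, 16, 11 and 4 in flox HFFC libraries, and 4, 5 and 162 in flox chow libraries. The levels were 30.7, 54.6 and 42.4 CPM in KO HFFC, 54.5, 18.2 and 9.91 CPM in flox HFFC, and 8.24, 7.34 and 742 CPM in flox chow. Below the high library the order had the 2 other flox chow libraries at its foot. Flox chow replicate 3 stood 13.6-fold over the next library, KO HFFC replicate 2 (8.88 to 21.6), and 96.2-fold over the 2 other flox chow libraries pooled (49.5 to 214), a wide interval because those libraries held only 9 counts.

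miR-133a-3p, which is transcribed together with miR-1a and acts beside it in heart and skeletal muscle, was near the limit of detection in most libraries. It had 1, 5 and 8 counts in KO HFFC libraries, 2, 1 and 0 in flox HFFC libraries, and 0, 4 and 96 in flox chow libraries. The levels were 2.37, 10.9 and 26.1 CPM in KO HFFC libraries, 6.81, 1.65 and 0 CPM in flox HFFC libraries, and 0, 5.87 and 440 CPM in flox chow libraries. The floor of 3 counts is 7.44 CPM for the 0 of flox HFFC replicate 3 and 6.18 CPM for that of flox chow replicate 1. The Wilson intervals of these libraries reach higher, to 9.52 and 7.91 CPM. The high library was again flox chow replicate 3, at 16.9 times the next library, KO HFFC replicate 3 (8.22 to 40.2). Its near-identical copy miR-133b is not analysed here, so reads that fit both cannot be assigned.

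**Figure D1:**
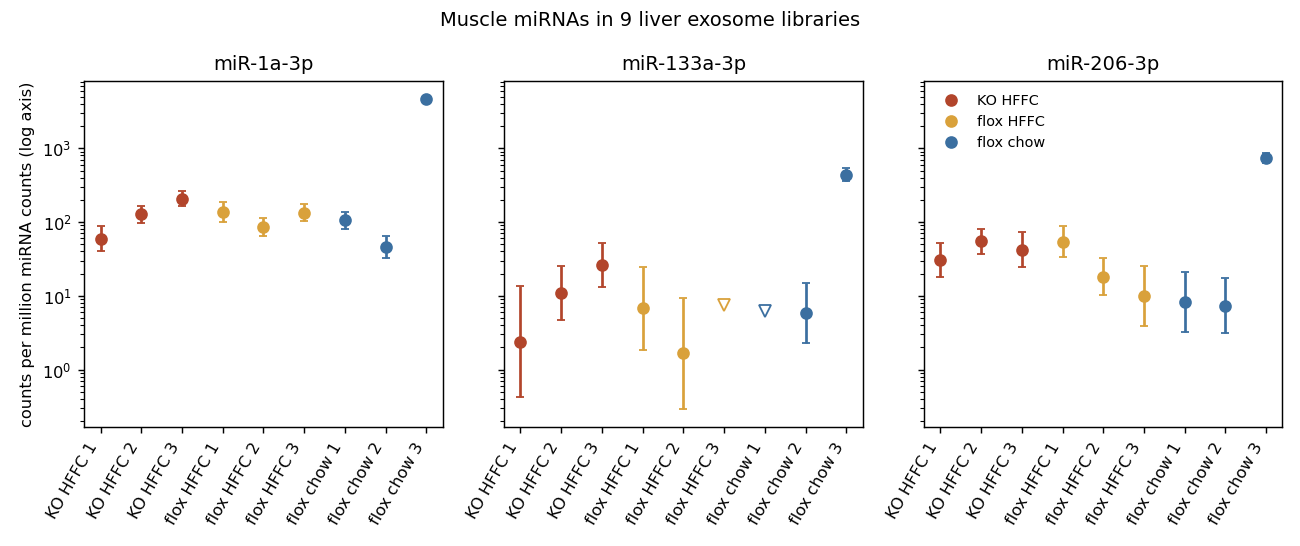
Level of each member in the 9 libraries, in CPM on a log axis, with 95% Wilson intervals (points) or, at 0 counts, the floor of 3 counts (open triangles). Flox chow replicate 3 stands at 4715, 440 and 742 CPM for miR-1a-3p, miR-133a-3p and miR-206-3p, apart from the other 8 libraries.

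The spread within the flox chow group was accordingly larger than its mean. miR-1a-3p averaged 132 ± 74.9 CPM in KO HFFC, 119 ± 28.3 CPM in flox HFFC and 1622 ± 2679 CPM in flox chow (SD, n = 3 each). Without flox chow replicate 3 the flox chow mean was 75.3 ± 42.1 CPM (SD, n = 2), which is below that of both HFFC groups. Both gaps were less than the SD of KO HFFC but more than that of flox HFFC. miR-206-3p averaged 42.6 ± 11.9 CPM in KO HFFC, 27.5 ± 23.7 CPM in flox HFFC and 253 ± 424 CPM in flox chow (SD, n = 3 each), and 7.79 ± 0.64 CPM in flox chow without replicate 3 (SD, n = 2). miR-133a-3p averaged 13.1 ± 12.0 CPM in KO HFFC, 2.82 ± 3.55 CPM in flox HFFC and 149 ± 252 CPM in flox chow (SD, n = 3 each). The group mean of flox chow thus described none of its 3 libraries for any member.

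The remaining striated muscle miRNAs in the table were highest in the same library. Of 15 such names listed, 3 were in the table. miR-1a-1-5p, the other arm of a hairpin that gives miR-1a-3p, had 6 counts in flox chow replicate 3. The other 8 libraries had 0 each. Its level in flox chow replicate 3 was 27.5 CPM (Wilson interval 12.6 to 60.0 CPM). The floor of 3 counts per library is 4.40 to 10.2 CPM in the other 8. Against 3 counts spread over those 8 pooled the fold was 33.5, which is not a lower bound, because 6 counts carry a wide error. miR-1a-1-5p has counts in no other library, so its being highest in flox chow replicate 3 carries no weight of its own. miR-1b-5p, from a hairpin that overlaps a miR-1a hairpin on the opposite strand, had 50 counts in flox chow replicate 3 and 0 to 4 elsewhere. Its fold over the next library, flox HFFC replicate 3, was 23.1 (exact interval 8.48 to 88.1). The sources used here do not say whether reads were assigned by strand, so the miR-1b-5p counts may include reads of its partner.

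miR-499-5p, which is made from an intron of the slow myosin gene Myh7b and belongs to heart and slow muscle fibres, was less uneven. It had 6, 5 and 1 counts in KO HFFC libraries, 4, 8 and 14 in flox HFFC libraries, and 6, 10 and 31 in flox chow libraries. Flox chow replicate 3 stood at 142 CPM, 4.09 times the 34.7 CPM of flox HFFC replicate 3 (exact interval 2.11 to 8.33), and the other 8 libraries lay between 3.26 and 34.7 CPM. The interval of its fold overlaps that of miR-133a-3p (8.22 to 40.2) and ends below those of miR-206-3p (8.88 to 21.6) and miR-1a-3p (17.5 to 29.6). miR-208a and miR-208b, the other myosin-gene miRNAs on the list, are not analysed here.

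Among all entries with at least 10 counts in flox chow replicate 3, which were 185, the first 5 by fold over the highest other library were muscle miRNAs. They were miR-1b-5p, miR-1a-3p, miR-133a-3p, miR-206-3p and miR-499-5p in that order. The median fold over the 185 entries was 0.511, and 29 entries exceeded 1. The members had been chosen for this value, so their own place in the order is a description. Just outside a threshold of 5-fold stood miR-499-5p, followed by a predicted miRNA at 3.21 (16 counts) and by miR-1291, named here after its value was seen, at 2.49 (19 counts). Exactly 4 entries of flox chow replicate 3 passed 5-fold, the 3 members and miR-1b-5p. The same search gave 1 entry in KO HFFC replicate 1 (miR-3473e, 10 counts, 5.16-fold, also named after its value was seen), 1 in KO HFFC replicate 2 (a predicted miRNA, 35 counts, 7.82-fold) and 0 in each of the other 6 libraries.

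**Figure D2:**
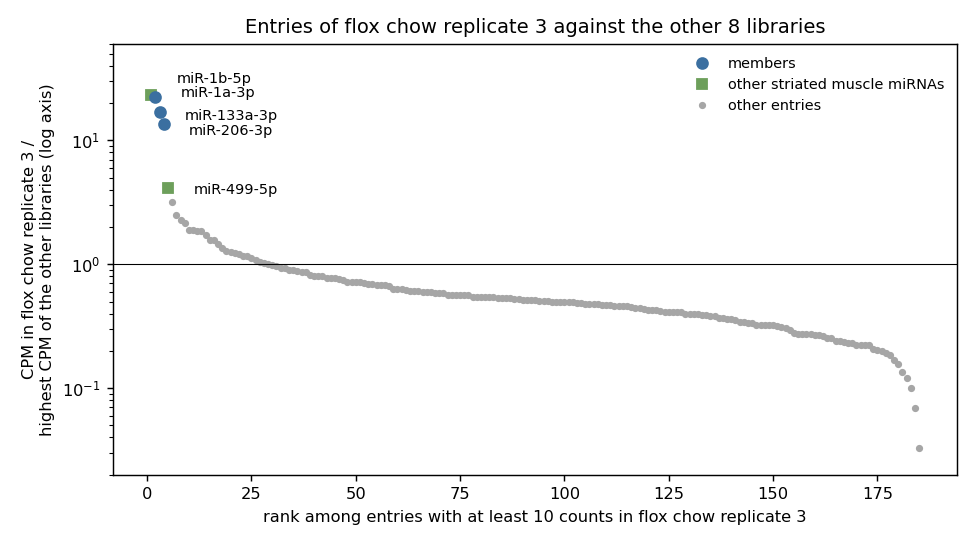
CPM in flox chow replicate 3 divided by the highest CPM of the other 8 libraries, on a log axis, for the 185 entries with at least 10 counts there, in order of that ratio. Members are circles, other striated muscle miRNAs squares and all other entries grey points, and the 5 labelled muscle miRNAs take the first 5 places while the highest other entry is at 3.21.

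The markers of other cell types did not share an excess of this size, and their part in the muscle signal was not tested. Over the smooth muscle and mesenchyme list (10 of 11 in the table, led by miR-143-3p, a smooth muscle miRNA) the summed level in flox chow replicate 3 was 6740 CPM, below the 10034 to 19588 CPM of the other 8 libraries. The endothelial list (2 of 2, led by miR-126a-3p) stood at 37470 CPM there against 43523 to 72735 CPM elsewhere, and the red blood cell list (7 of 7, led by miR-451a) at 5283 CPM against 5817 to 12196 CPM. These 3 sums were at their lowest in the library where the muscle miRNAs were highest, but each rests mostly on its leading miRNA. In the red blood cell list, miR-451a was below all other libraries in flox chow replicate 3, while 2 of the 7 members were above all of them. These were miR-486a-3p (1 count) and miR-486b-3p, from a miRNA known from muscle as well as red blood cells, at 77.9 CPM (17 counts) against 0 to 34.0 CPM elsewhere, both named after their values were seen. The 5′ arms were within the range of the others. miR-486a-5p stood at 179 CPM against 0 to 192 CPM, and miR-486b-5p at 82.5 CPM against 3.40 to 114 CPM.

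The epithelial list (7 of 7, led by miR-429-3p) was lowest there too, at 655 CPM against 662 to 2863 CPM elsewhere. The leukocyte list (7 of 7, led by miR-150-5p) was within the range of the others, at 893 CPM against 727 to 1263 CPM, as was the neural list (9 of 10, led by miR-138-5p, itself at 0 in flox chow replicate 3), at 22.9 CPM against 18.9 to 104 CPM. The lists that were highest in flox chow replicate 3 were the hepatocyte list (11 of 11, led by miR-122-5p), at 42.3% of counts against 25.3% to 37.7%, and the pancreas list, represented by miR-375-3p alone (1 of 8), at 55.0 CPM against 10.9 to 51.1 CPM. The hepatocyte sum is mostly miR-122-5p, and its members were divided: in flox chow replicate 3, 3 of the 11 were above all other libraries and 3 were below all of them, among them miR-192-5p, at 36407 CPM against 49897 to 60070 CPM, named after its value was seen. In that library the 3 other striated muscle entries summed to 399 CPM, against 3.26 to 44.6 CPM in the other 8. Of that sum, 229 CPM was miR-1b-5p and 27.5 CPM miR-1a-1-5p, both tied to hairpins of miR-1a, and 142 CPM was miR-499-5p.

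**Figure D3:**
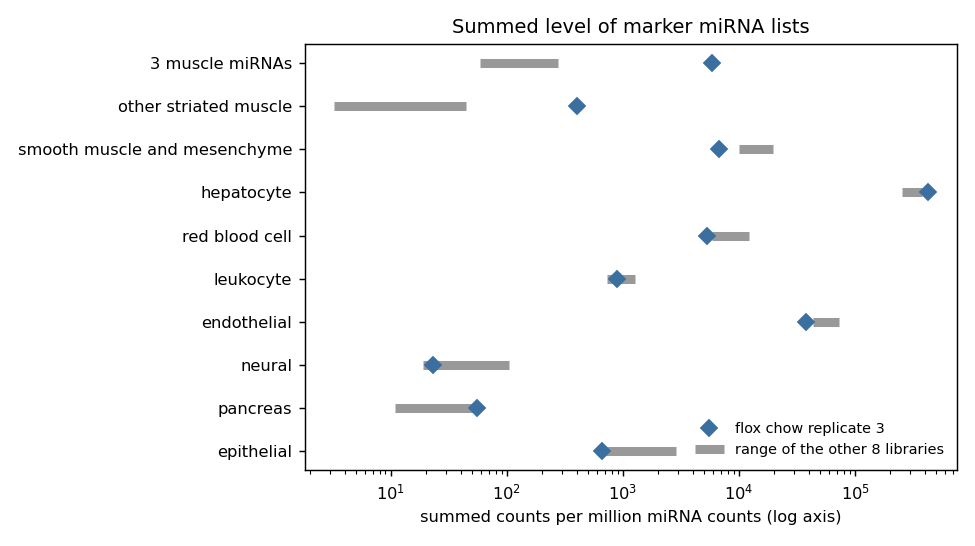
Summed CPM, on a log axis, of the 3 muscle miRNAs and of 9 lists of cell type markers, in flox chow replicate 3 (diamonds) and over the other 8 libraries (grey bars, lowest to highest). Only the first 2 rows, both of striated muscle, place the diamond far above the bar. The second row is mostly miR-1b-5p (229 of 399 CPM), whose hairpin overlaps one of miR-1a.

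A ratio between members within a library does not depend on its depth or scaling. miR-1a-3p made up 80.0% of the summed counts of the 3 members in flox chow replicate 3 (95% Wilson interval 77.7% to 82.1%, 1287 counts), miR-133a-3p 7.46% (6.15% to 9.02%) and miR-206-3p 12.6% (10.9% to 14.5%). Over the other 8 libraries pooled, which held 487 counts of the members, the shares were 77.0% for miR-1a-3p (73.1% to 80.5%), 4.31% for miR-133a-3p (2.84% to 6.50%) and 18.7% for miR-206-3p (15.5% to 22.4%). The share of miR-1a-3p thus overlapped between the high library and the rest, that of miR-133a-3p overlapped narrowly, and that of miR-206-3p was lower in the high library, with intervals that do not meet. These intervals pool libraries and do not include the spread between them.

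Between libraries the make-up was not constant. miR-206-3p had 52.0, 43.1 and 20.3 counts per 100 counts of miR-1a-3p in KO HFFC, 40.0, 21.2 and 7.41 in flox HFFC, and 7.84, 16.1 and 15.7 in flox chow. The ratio of the high library, 15.7, lay between those of the other flox chow libraries. Pooled by group, miR-206-3p made up 24.1% of the members' counts in KO HFFC (95% Wilson interval 18.8% to 30.2%), 17.2% in flox HFFC (12.4% to 23.4%) and 12.4% in flox chow (10.7% to 14.2%). These intervals cover counting error only and leave out the spread between libraries, so they do not compare the groups. Single libraries ran from 15.3% to 33.3% in KO HFFC, 6.90% to 27.6% in flox HFFC and 7.27% to 12.6% in flox chow. Of the 1382 pooled flox chow counts, 1287 came from replicate 3, and replicates 1 and 2 pooled gave 9.47% (5.06% to 17.0%).

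**Figure D4:**
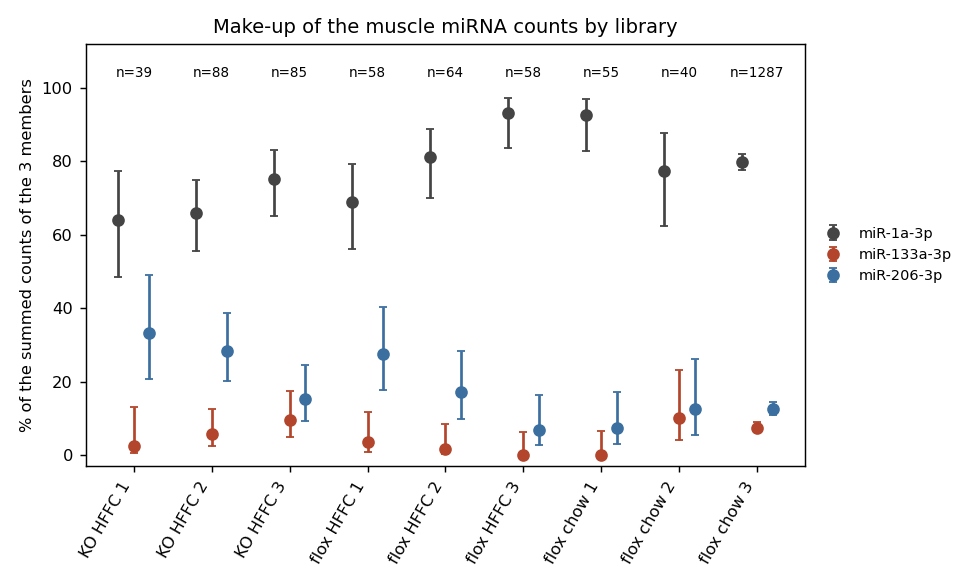
Share of each member in the summed counts of the 3 members, by library, with 95% Wilson intervals and the summed count above each library. miR-1a-3p forms the largest share in every library, from 64.1% to 93.1%, and the share of miR-206-3p runs from 6.90% to 33.3%.

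The comparison of KO HFFC with flox HFFC, which asks what loss of Hsp90β in hepatocytes changes on the diet, holds no library that the choice of members used and could be tested. Of the 3 members, 2 passed the low-count filter (miR-1a-3p and miR-206-3p), as did 248 of the 722 entries. With edgeR's quasi-likelihood test and Benjamini-Hochberg adjustment over the 248, neither member differed, and 0 of 248 entries were called (0%). At an unadjusted p under 0.05 there were 20 entries (8.06%), none of them a member. The 3 KO HFFC and 3 flox HFFC levels overlapped for both tested members, where 33 of the 248 entries (13.3%) did not overlap.

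miR-1a-3p had a log2 fold change of -0.09 ± 1.42 (SE) in KO HFFC over flox HFFC. It had an adjusted p = 0.971 by edgeR's quasi-likelihood test and an approximate 95% interval of the difference from -2.87 to 2.69. The intervals in this paragraph are a multiple of the SE taken from the normal distribution. That multiple leaves out that the SE was estimated from few libraries, so intervals matched to the test would be wider. miR-206-3p had 0.40 ± 1.59 (adjusted p = 0.954, interval -2.72 to 3.51). The median over the 248 entries was -0.03, with a median SE of 0.55, so the error of the members was wider than that of most entries. That error is shared by the 3 groups in the fit, and flox chow replicate 3 enters it. Without that library the values were -0.15 ± 0.59 for miR-1a-3p (interval -1.31 to 1.01) and 0.33 ± 0.84 for miR-206-3p (-1.31 to 1.97), with 279 entries tested and 1 called, which was no member. From the 6 HFFC libraries alone they were -0.16 ± 0.58 and 0.30 ± 0.85. The error of miR-1a-3p in this contrast was thus 1.42 with a library of neither group in the fit and 0.59 without it, and the narrower intervals still reach beyond 2-fold in either direction.

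miR-133a-3p did not pass the filter. Its 14 counts over KO HFFC and 3 over flox HFFC were too few for the main test. With a filter of at least 5 counts in 3 libraries, it had a log2 fold change of 1.93 ± 2.27 (edgeR). It passed that filter only because flox chow replicate 3 was among those 3 libraries, so this value is a description. With no filter it had 2.09 ± 2.72 (edgeR, adjusted p = 0.794).

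The other contrasts contain the high library, so the members' values in them describe the data the choice was made on. They share the 3 flox chow libraries. In flox HFFC over flox chow, the contrast of the diet, miR-1a-3p stood at -3.99 ± 1.57 (log2, SE) and miR-206-3p at -3.38 ± 1.65. In KO HFFC over flox chow they stood at -4.08 ± 1.57 and -2.98 ± 1.59. Other fits of the same 9 libraries moved these values. limma-voom gave -1.01 for miR-1a-3p and 0.31 for miR-206-3p in flox HFFC over flox chow, and -1.25 and 1.16 in KO HFFC over flox chow. Over all 248 entries the medians were -0.02 and -0.05, with 0 entries called in either contrast (0% and 0%), and 11 (4.44%) and 32 (12.9%) at an unadjusted p under 0.05.

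Leaving out flox chow replicate 3 turned all 4 values to the other side of 0. Flox HFFC over flox chow then gave 0.72 ± 0.68 for miR-1a-3p and 1.90 ± 1.04 for miR-206-3p, and KO HFFC over flox chow gave 0.57 ± 0.67 and 2.23 ± 1.03. Leaving out any other library kept all 4 below 0, between -4.90 and -2.98. The position of the muscle miRNAs in both chow contrasts therefore rested on 1 library of 9. The 2 flox chow libraries left had 8.24 and 7.34 CPM of miR-206-3p, below all 3 KO HFFC and all 3 flox HFFC libraries, although the interval of flox HFFC replicate 3 (3.86 to 25.5 CPM) covers both. With replicate 3 left out, 75 of the 248 entries (30.2%) did not overlap between KO HFFC and flox chow, and 36 (14.5%) between flox HFFC and flox chow.

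**Figure D5:**
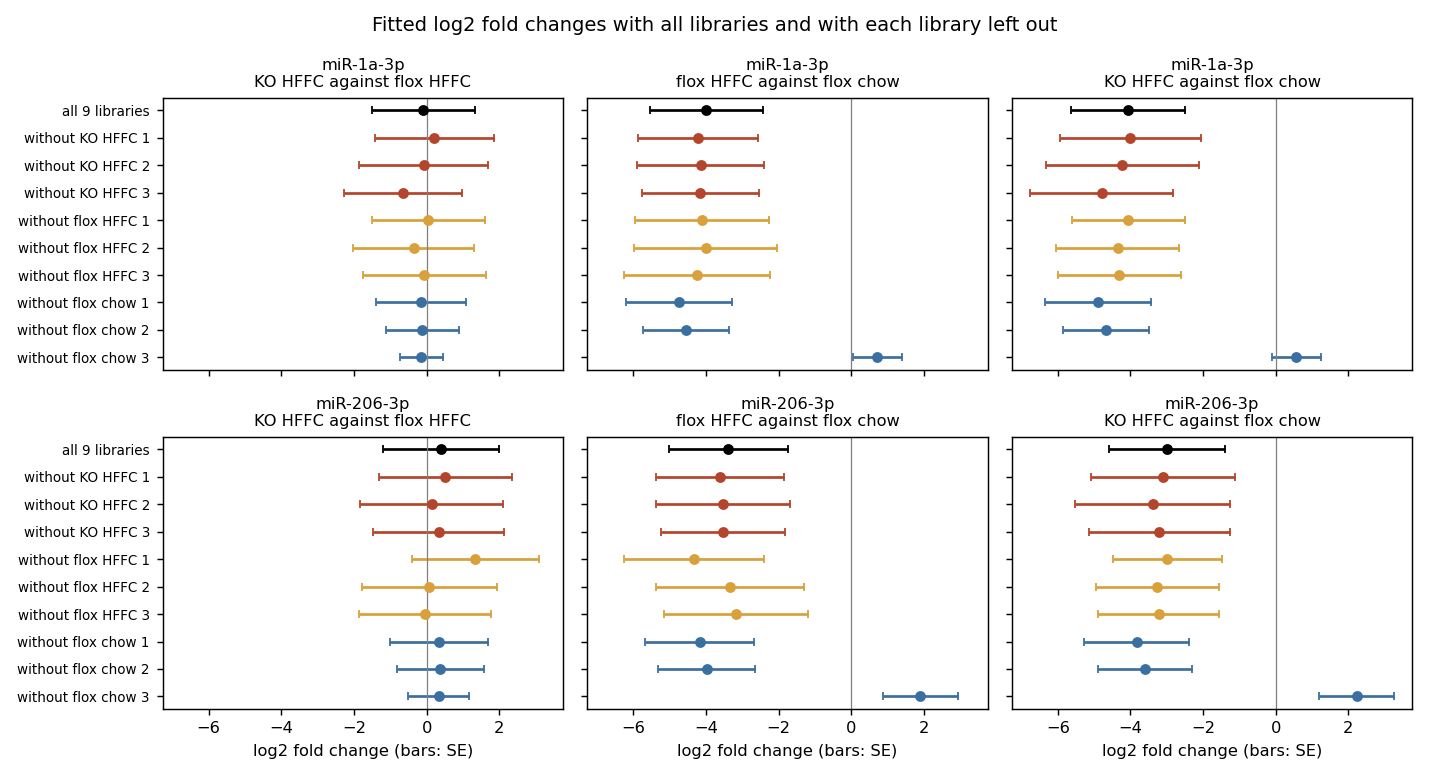
Log2 fold change of miR-1a-3p (top) and miR-206-3p (bottom) in the 3 contrasts, fitted by edgeR with all 9 libraries and with each library left out in turn. Bars are SE, and without flox chow replicate 3 the 4 contrasts with flox chow move to the right of 0 while the bars in KO HFFC against flox HFFC shorten.

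The likeness of other entries to miR-1a-3p over the libraries depended in part on the same library. By Pearson correlation of log2(TMM-scaled CPM + 1) over the 9 libraries, the 5 entries most like miR-1a-3p were miR-206-3p (r = 0.89), the hepatocyte miRNA miR-122-5p (0.84), miR-122b-3p (0.75) and 2 predicted miRNAs (0.76 and 0.70). The points share library depth, and r is given as a description. Over the 8 libraries without flox chow replicate 3, r was 0.47 for miR-206-3p, 0.75 for miR-122-5p and -0.19 for miR-122b-3p. In that set miR-206-3p was in place 27 of 247, and 1 of the first 5 entries, miR-122-5p, was still among the first 5. By Spearman correlation over the 9 libraries miR-122-5p came first (rho = 0.92), and miR-206-3p was not among the first 5.

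Each member can come from more than 1 place in the genome, apart from miR-206-3p (GENCODE M21 annotation, build GRCm38). Mir206 overlaps an exon of the long noncoding RNA gene Gm28653 on its own strand, 3686 bases before Mir133b. Mir1a-1 (chr2:180389048-180389124, plus strand) and Mir133a-2 (chr2:180398379-180398482, plus strand) lie 9254 bases apart. Neither lies within a gene looked up as a host (Mib1, Myh7b, Gm28653 and Mir133a-1hg), and other genes were not searched. The second copies, Mir1a-2 and Mir133a-1, lie on chromosome 18 in introns of Mir133a-1hg, 2504 bases apart, and inside an intron of Mib1 on the opposite strand. Mir1b overlaps all 72 bases of Mir1a-2 on the other strand. The counts of miR-1a-3p and miR-133a-3p cannot be divided between their copies, while miR-1a-1-5p, named for the copy on chromosome 2, was counted in flox chow replicate 3 alone. It had 6 counts there beside 1029 of miR-1a-3p. The other libraries had 25 to 64 counts of miR-1a-3p, too few for the absence of miR-1a-1-5p to tell the copies apart.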

How the data were processed

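The authors sequenced small RNA from hepatic exosomes in 9 libraries and deposited whole-number read counts per mature miRNA with reads per 1000000 tags (RPM). The submitters' processing notes name Bowtie2, and the study matched reads to miRBase. The labels describe tissue RNA with molecular identifiers on the adapters, the paper a kit without them, and neither says whether identifiers were collapsed. Deposited RPM gave tag totals only. Group means that the authors deposited, estimated counts that need not be whole, were not used. 0 columns were left unassigned.

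Counts were tested with edgeR 4.0.16 (TMM factors, filterByExpr with a minimum of 10 counts, robust quasi-likelihood, all 9 libraries in 1 fit, Benjamini-Hochberg, threshold 0.05), after the script was tested on simulated data. limma 3.58.1 and DESeq2 1.42.0 were alternatives. R was 4.3.3, Python 3.11.15 and scipy 1.17.1. Groups and replicate numbers came from the sample titles, and no 2 libraries of 1 group agreed within sampling noise. The study gives as many mice as libraries in each group, so p-values measure the spread between mice of a group.

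Named were the members, other striated muscle entries, the 5 entries most like miR-1a-3p, entries over 5 times the share of any other library, and the leading member of each marker list. Members and lists were chosen with earlier results of these data known.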

Additional observations from a re-analysis of the deposited data

How the results depend on the processing

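The fold of flox chow replicate 3 over the next library was 22.6 for miR-1a-3p and 13.6 for miR-206-3p as a share of miRNA counts. With raw counts it was 16.1 and 6.48, with the authors' RPM 15.97 and 6.43, with TMM-scaled CPM 30.5 and 15.1. For miR-133a-3p these alternatives stayed within the interval of 16.9. The number of entries over 5-fold, 4, was also 4 with a minimum of 30 counts or a factor of 10, and 6 with a factor of 3.

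In KO HFFC over flox HFFC, miR-1a-3p (-0.09) was at 0.15 with total counts and no factors, and at -0.65 to 0.21 with each library left out. miR-206-3p (0.40) was at -0.052 to 1.34 with each library left out. In the contrasts with flox chow, limma-voom put miR-206-3p at 0.31 (flox HFFC) and 1.16 (KO HFFC), where edgeR gave -3.38 and -2.98, and the cause was not tested. With each library left out, flox HFFC over flox chow ran from -4.75 to 0.72 for miR-1a-3p and from -4.32 to 1.90 for miR-206-3p, and KO HFFC over flox chow from -4.90 to 0.57 and from -3.83 to 2.23. With the tags behind RPM as totals, miR-1a-3p in KO HFFC over flox chow was at -2.91. DESeq2 gave no p for the members. miR-206-3p did not pass the filter in the fit of the 6 flox libraries.

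Entries called in KO HFFC over flox HFFC numbered 0, but 1 with the tags behind RPM, 7 with no filter, 5 with DESeq2, and 0 to 5 with each library left out (5 without KO HFFC replicate 1, 1 without flox chow replicate 3). In KO HFFC over flox chow they numbered 0, but 1 with total counts, 4 with the tags, 10 with no filter, 6 with DESeq2, and 0 to 5 with each library left out (5 without KO HFFC replicate 1). Flox HFFC over flox chow gave 0 under every alternative run.

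Same-numbered libraries of different groups correlated at -0.18 to 0.38 in their deviations, and differently numbered ones at -0.44 to 0.43. The numbers were therefore not taken to pair the libraries. With the replicate block, miR-1a-3p was at -0.46 in KO HFFC over flox HFFC, -1.75 in flox HFFC over flox chow and -2.21 in KO HFFC over flox chow, miR-206-3p at -1.39 and -1.14 in the chow contrasts, and no contrast had a call. Depth limits miR-133a-3p most, at 0 to 8 counts outside flox chow replicate 3.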
